A study of Mus musculus with 24 samples.

Results

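The genes described here are the aryl hydrocarbon receptor (Ahr), a ligand-activated transcription factor, and 5 of its classical targets, 6 genes among 55401 in the deposited tables. They were chosen by name: Ahr, its repressor Ahrr, the ADP-ribosyltransferase Tiparp, the cytochromes P450 Cyp1a1 and Cyp1b1, and the quinone reductase Nqo1. Without ligand, the receptor is held in the cytoplasm by heat shock protein 90 and its partner proteins. Ligands such as dioxins, plant indoles and tryptophan metabolites release it to the nucleus, where it pairs with Arnt and binds DNA at sites with the core GCGTG. Cyp1a1 and Cyp1b1 then oxidise the ligand, while Ahrr and Tiparp feed back on the receptor. In the gut, the receptor is known for its role in barrier lymphocytes and in epithelial detoxification.

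The study measured RNA by SMART-seq2 in 24 bulk libraries of male C57BL/6 mice, 11 weeks of age. Mice received propyzamide, a herbicide that acts on plant microtubules, or an empty vehicle. The 6 groups of 4 libraries were propyzamide and vehicle without stimulation, propyzamide and vehicle 3 h after anti-CD3, and propyzamide and vehicle 24 h after anti-CD3, an antibody against the T cell receptor complex. Replicate numbers follow the order of the records and pair nothing. The series title speaks of mouse T cells in a model of inflammatory bowel disease. No source used here states the tissue, any sort of cells, the doses or the origin of each replicate, so p-values measure only the spread between these libraries, which may be technical. The 12 T cell markers summed to 425 to 1171 CPM over the 6 groups (counts scaled to the counts in named protein-coding genes, the meaning of CPM throughout), and the 13 epithelial markers to 502 to 7762, so the libraries held RNA of more than T cells. At 24 h the T cell and epithelial sums were 858 and 502 CPM with vehicle. With propyzamide they were 1171 and 7539, or 1330 and 901 without replicate 3. In bulk RNA, fewer cells of a type and less RNA per cell cannot be told apart.

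Depth set the limit for every value below. Named protein-coding genes took 17960 to 160739 counts in all libraries but 1, propyzamide 24 h replicate 3, which had 2938150 and is called the deepest library here. That library held 93.5% of its group's named protein-coding counts, and 29.9% of its own counts lay in such genes, against 3.75% to 9.63% elsewhere. The 6 genes together had 1131 counts over 24 libraries, of which 721 lay in the deepest library. Levels are therefore given in CPM, pooled over the libraries of a group, with exact 95% counting intervals and with the deepest library in and out. Intervals and floors cover counting error only and leave out the spread between libraries. Without molecular identifiers several reads can stem from 1 molecule, so the intervals may be too narrow even for counting error. Both unstimulated groups and vehicle at 3 h shared one i5 sequencing index, and the other 3 groups another. Propyzamide and vehicle therefore differed in index at 3 h, where index and treatment cannot be told apart.

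Sequence before the start of the target genes is shown because the receptor acts through it. In the 250 bases before the RefSeq start (GRCm38.p6), the 5-base core GCGTG, searched on both strands, occurred 3 times for Ahrr and once each for Cyp1a1, Cyp1b1 and Tiparp, and not for Nqo1. The same core was present in 28.2% of 32851 promoter windows, and a match is not a binding site. No window was matched for Ahr. The match nearest the start of each gene is printed with 20 bases on either side, 5′ to 3′ on the gene's strand, with the core in capitals; CACGC is the core read from the opposite strand. The windows lie at chr13:74292334-74292378 for Ahrr (minus strand), chr9:57697539-57697583 for Cyp1a1 (plus), chr17:79715113-79715157 for Cyp1b1 (minus) and chr3:65528257-65528301 for Tiparp (plus).
Ahrr: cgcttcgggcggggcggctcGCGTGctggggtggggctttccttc
Cyp1a1: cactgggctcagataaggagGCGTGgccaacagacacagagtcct
Cyp1b1: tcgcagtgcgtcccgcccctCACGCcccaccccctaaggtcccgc
Tiparp: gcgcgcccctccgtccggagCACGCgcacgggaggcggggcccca

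None of the 6 genes was called in any comparison by edgeR's quasi-likelihood test. All 6 fell below its filter on low counts, which kept 3799 genes, so 0 of 6 were tested. Among the genes tested, 0% were called for propyzamide against vehicle at each of the 3 stages. Anti-CD3 at 3 h against unstimulated called 0.711% with propyzamide and 0.290% with vehicle. Anti-CD3 at 24 h against unstimulated called 0.0790% with propyzamide and 0.421% with vehicle, and 24 h against 3 h called 15.2% with propyzamide and 0% with vehicle. Without the filter, 48267 genes were tested, and 0 of the 66 pairs of a member and a comparison reached an unadjusted p under 0.05; DESeq2 also gave 0 such pairs. In that fit 0.0394%, 0.0228% and 0.135% of genes were called for propyzamide against vehicle without stimulation, at 3 h and at 24 h. For anti-CD3 with propyzamide the shares were 0.135% at 3 h and 0.0704% at 24 h against unstimulated, and 0.327% for 24 h against 3 h. With vehicle they were 0.118%, 0.133% and 0.0704% in the same order, and the interactions of treatment with 3 h and 24 h called 0.0435% and 0.0414%. Its smallest p among the members was 0.0525, for Nqo1 at 24 h against unstimulated with vehicle. The filtered edgeR fit of named protein-coding genes only tested Ahrr alone of the 6. There the unadjusted p was 0.0371 for 24 h against 3 h with propyzamide (adjusted p = 0.183). A missed threshold at these depths does not show that levels were alike.

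**Figure D1:**
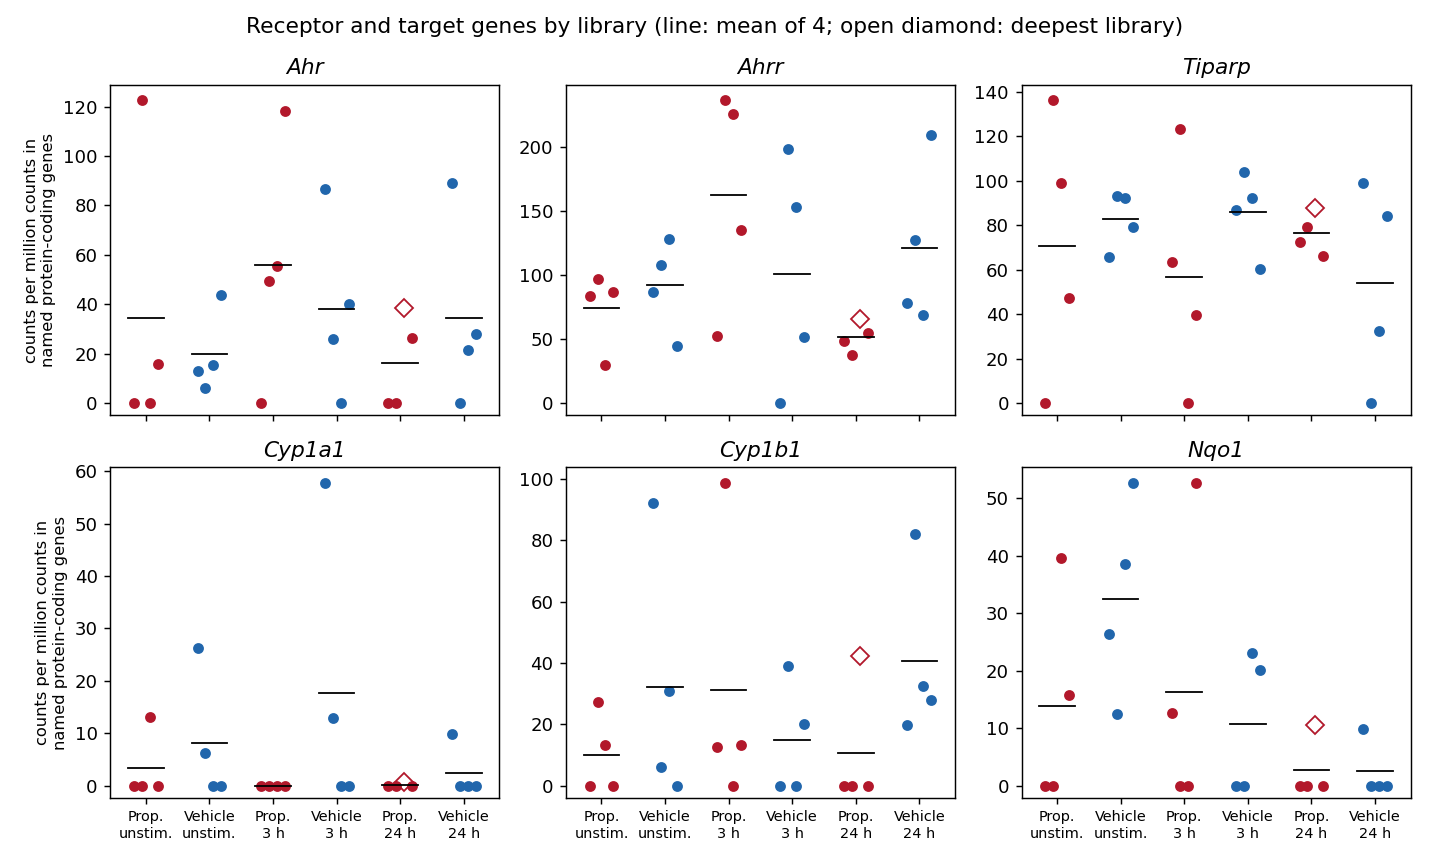
Level of each gene in each library, in CPM of named protein-coding genes (linear axis, a scale per panel), with propyzamide in red, vehicle in blue, a line at the mean of 4 libraries and an open diamond for the deepest library. Ahrr at 24 h is the one stage and gene tested where propyzamide (37.9 to 65.8) and vehicle (68.5 to 209) did not overlap. The share of all genes separated in this way was not computed.

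Ahr, the receptor itself (chromosome 12, 35497974 to 35535038, minus strand, GRCm38), had 164 counts over 24 libraries, 113 of them in the deepest, and was at 0 in 7 libraries. Without stimulation the counts were 0, 9, 0 and 1 with propyzamide and 1, 1, 2 and 5 with vehicle. At 3 h they were 0, 2, 1 and 9 with propyzamide and 3, 2, 0 and 2 with vehicle. One library held most of each propyzamide group, and the groups overlapped at both stages. At 24 h the counts were 0, 0, 113 and 2 with propyzamide and 9, 0, 1.3 and 1 with vehicle. Pooled levels with propyzamide were 30.5 CPM (14.6 to 56.0) without stimulation, 56.3 (29.1 to 98.3) at 3 h and 36.6 (30.2 to 43.9) at 24 h. With vehicle they were 18.7 (8.57 to 35.6), 34.2 (13.7 to 70.4) and 44.6 (22.3 to 79.8). No ratio of 2 groups passed counting error with all libraries in. Without the deepest library, propyzamide at 24 h had 2 counts in 3 libraries, and its ratio to propyzamide at 3 h was 0.173 (0.0188 to 0.778).

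Ahrr, which competes with the receptor for Arnt (chromosome 13, 74211118 to 74292331, minus strand), was detected in 23 of 24 libraries, with 347 counts in all and 193 in the deepest. At 24 h the levels in CPM were 48.4, 37.9, 65.8 and 55.0 with propyzamide, against 78.4, 128, 68.5 and 209 with vehicle. All 4 propyzamide libraries lay below all 4 vehicle libraries, the deepest library being the closest to them. The means were 51.8 ± 11.7 CPM with propyzamide and 121 ± 64.3 with vehicle (SD, n = 4 each; two-sided exact permutation p = 0.0286, the smallest that 4 against 4 can give). Without the deepest library p was 0.0857 in the exact permutation test. The pooled ratio was 0.613 (0.406 to 0.961), and 0.462 (0.199 to 0.990) without the deepest library. That interval reached 1.07 without vehicle 24 h replicate 2 (ratio 0.640) and 1.30 without replicate 4 (ratio 0.757), and the ratio turned to 2.99 per count of any kind, with the deepest library holding more of its counts in named genes. With counts outside Gm models as the denominator it was 0.681 (0.451 to 1.07). As deposited TPM, which is scaled to all transcripts and their lengths, Ahrr at 24 h ran the other way in its means, 6.44 ± 7.56 with propyzamide (0.265 to 15.8) and 1.99 ± 2.72 with vehicle (0.379 to 6.06; SD, n = 4 each), and the groups overlapped. The exact permutation test was run on 31 pairs of a gene and a comparison. Only this pair was under 0.05, and chance can give such a value among 31 pairs. The pairs share groups and are not separate tests. Those of Ahr, Cyp1b1 and Nqo1 that include propyzamide at 24 h had enough counts for the test only through the deepest library. The number expected by chance was therefore not worked out. The share of all genes whose libraries separate as those of Ahrr did at 24 h was not computed. For Ahrr at 24 h, the edgeR fit without a filter gave a log2 fold change of -0.51 ± 0.70 (SE) and an adjusted p of 0.837.

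At 3 h, Ahrr stood at 52.7, 237, 226 and 135 CPM with propyzamide, against 0, 198, 153 and 51.6 with vehicle. Without stimulation it stood at 83.7, 96.8, 29.8 and 87.2 with propyzamide, against 87.1, 108, 128 and 44.6 with vehicle. The treatments overlapped at both stages. Among propyzamide libraries, 3 of the 4 at 3 h lay above all 4 unstimulated ones. The pooled ratio of 3 h to unstimulated with propyzamide was 2.15 (1.17 to 4.03; exact permutation p = 0.114), and that of 24 h to 3 h was 0.492 (0.330 to 0.759; exact permutation p = 0.0857). The first was no longer past counting error without propyzamide 3 h replicate 2 (1.80, 0.911 to 3.56) or unstimulated propyzamide replicate 3 (1.45, 0.757 to 2.86), or with all counts as the denominator (1.79, 0.975 to 3.36), and the 2 groups also differ in index. The second turned to 2.10 per count of any kind. With vehicle the same ratios were 1.22 (0.714 to 2.05) and 0.90 (0.496 to 1.64). These comparisons share groups, and the difference between treatments was not called in either interaction of the fit without a filter.

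Most Ahrr counts lay on a transcript that does not encode the protein. In 23 libraries, 82.4% of Ahrr counts (exact binomial interval 75.5 to 88.1) were assigned to a retained-intron transcript, Ahrr-205, and 7.83% to coding transcripts. In the deepest library the shares were 48.9% and 32.5%. At 24 h the coding transcripts held 63.9 counts with propyzamide, of which 1 lay outside the deepest library, and 3 with vehicle. The retained-intron transcript held 99.9 counts with propyzamide, or 5.35 without the deepest library, and 20.8 with vehicle. Among 2564 named genes with at least 100 counts and such a transcript, the median share on retained-intron transcripts was 22.0% in the 23 libraries, and 9.48% of the genes were at or above Ahrr. Whether these counts came from unspliced RNA or from genomic DNA was not tested. On Ahrr-205, 2.09% of the 31-base stretches also occurred in transcripts of other genes, against 17.0% on the short Ahrr-206. Over all Ahrr transcripts, the shared stretches occurred in 601 other genes, against 3 for Ahr and 1 for Tiparp. How many Ahrr counts came from such stretches was not tested.

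**Figure D2:**
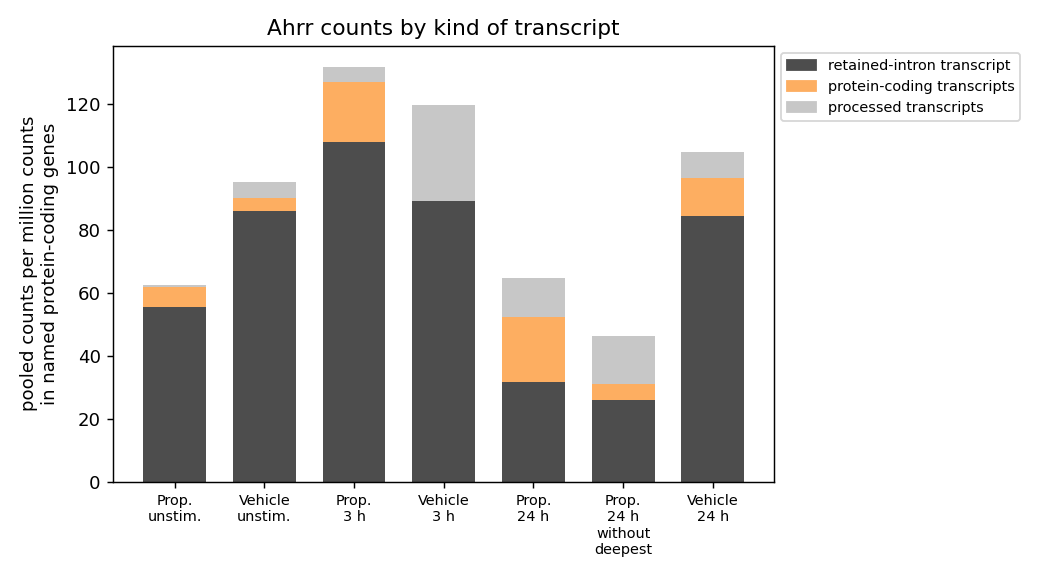
Pooled Ahrr level in CPM of named protein-coding genes by group, split by the annotated kind of transcript (stacked bars, linear axis from 0, no error shown), with propyzamide 24 h also drawn without the deepest library. The retained-intron transcript makes up 49.2% of the bar for propyzamide at 24 h and 80.6% of that for vehicle at 24 h.

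Tiparp, a target that modifies and restrains the receptor (chromosome 3, 65528410 to 65555518, plus strand), had 388 counts, 258 of them in the deepest library. Without stimulation it had 0, 10, 15 and 3 counts with propyzamide and 5, 15, 12 and 9 with vehicle. At 3 h it had 5, 5, 0 and 3 with propyzamide and 3, 8, 4 and 3 with vehicle, and at 24 h 3, 7, 258 and 5 with propyzamide and 10, 0, 2 and 3 with vehicle. On the CPM scale, the deepest library (87.8) stood near its 3 fellow libraries (66.0 to 79.4). Pooled levels spanned 60.8 to 87.9 CPM over the 6 groups, and no ratio passed counting error. The ratio of propyzamide to vehicle was 1.0 (0.595 to 1.66) without stimulation, 0.694 (0.312 to 1.50) at 3 h and 1.43 (0.851 to 2.59) at 24 h, and the last was 1.20 (0.547 to 2.64) without the deepest library and 2.53 without vehicle 24 h replicate 1. Tiparp overlaps the antisense model 4931440P22Rik and Ahr overlaps Gm48236, and whether counting used strand is not stated, so reads from the overlapping stretches cannot be told apart. Of the 31-base stretches, 4.66% on Tiparp-201 and 1.79% on Ahr-202 also occurred in transcripts of another gene.

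Cyp1a1, the cytochrome most used as a marker of receptor activity (chromosome 9, 57687928 to 57703824, plus strand), had 11 counts in all, spread over 7 of 24 libraries. No group held more than 3. Propyzamide at 3 h had 0 counts (exact interval 0 to 17.3 CPM, the floor of 3 counts being 14.1 CPM), against 3 counts with vehicle. The deepest library had 2 counts, or 0.681 CPM (0.0824 to 2.46), against 9 counts and 5.36 CPM (2.45 to 10.2) in the 23 others. Every group was at or under the floor of 3 counts, so no fold is given.

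Cyp1b1 (chromosome 17, 79701537 to 79715061, minus strand), a related cytochrome, had 159 counts, of which 124 lay in the deepest library. At 24 h the counts were 0, 0, 124 and 0 with propyzamide and 2, 4, 2 and 1 with vehicle. The propyzamide group thus rested on 1 library, at 42.2 CPM, while all 4 vehicle libraries had counts, at 19.8 to 82.2 CPM. The pooled ratio of propyzamide to vehicle at 24 h was 1.08 (0.552 to 2.42). Without the deepest library it became 0 counts against 9, a ratio of 0 (exact interval 0 to 0.609). With the 0 set to the floor of 3 counts over the group, the level was 2.50-fold lower with propyzamide. The exact permutation p was 0.114, and 0.0571 without the deepest library. The pair entered that test only through the counts of the deepest library. In the edgeR fit without a filter and without that library, the log2 fold change was -4.50 ± 1.79 (SE). Its unadjusted p was 0.0122, where 1627 of 43138 genes were under 0.05, and its adjusted p was 0.851. Without stimulation the counts were 0, 2, 2 and 0 with propyzamide and 7, 1, 4 and 0 with vehicle; at 3 h they were 1, 4, 0 and 1 with propyzamide and 0, 3, 0 and 1 with vehicle. The ratio of 24 h to unstimulated with propyzamide, 3.24 (1.23 to 12.1), came from the deepest library alone: without it the counts were 0 and 4. Its interval also included 1 without unstimulated propyzamide replicate 3 (0.943 to 29.1) or replicate 4 (0.994 to 9.73).

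Nqo1, which reduces quinones and answers to the receptor and to Nrf2 (chromosome 8, 107388225 to 107403206, minus strand), had 61 counts, 31 of them in the deepest library, and was at 0 in 12 libraries. At 24 h it had 0, 0, 31 and 0 counts with propyzamide and 1, 0, 0 and 0 with vehicle. Without stimulation it had 0, 0, 6 and 1 with propyzamide and 2, 2, 5 and 6 with vehicle, the one group with counts in every library. At 3 h it had 1, 0, 0 and 4 with propyzamide and 0, 0, 1 and 1 with vehicle. With vehicle, the pooled level was 4.05 CPM (0.103 to 22.6) at 24 h and 31.2 (17.5 to 51.5) without stimulation, a ratio of 0.130 (0.00308 to 0.844) from 1 count against 15. Its interval reached 1.05, 1.12 and 1.19 without vehicle 24 h replicate 2, vehicle 24 h replicate 3 and unstimulated vehicle replicate 4, and the 2 groups differ in index. All 4 vehicle libraries at 24 h (0 to 9.90 CPM) lay below all 4 unstimulated ones (12.4 to 52.7 CPM), with too few counts for the permutation test set here. The share of all genes separated in this way was not computed. Named protein-coding counts were 35684 to 100998 in the vehicle libraries at 24 h and 75875 to 160739 in the unstimulated ones, so a count of 0 bounds the level less tightly at 24 h. The epithelial markers summed to 502 CPM in vehicle at 24 h (349 to 673 by library) and to 4372 in unstimulated vehicle (3920 to 4864). Of the 13 markers, 9 were tested, and 2 fell in that comparison, where 0.421% of 3799 genes tested were called and 4 genes fell. The median log2 fold change of the 9 was -3.12, with 0 of them positive, beside -0.03 over all genes tested. With propyzamide at 24 h they stood at 8002 in the deepest library and at 420 to 1471 in the 3 others. In those 3, Nqo1 and Cyp1b1 had 0 counts, a pooled interval of 0 to 18.0 CPM for each. Nqo1 stood at 10.6 CPM in the deepest library and at 31.2 in unstimulated vehicle, where the epithelial markers summed to 8002 and 4372. Cyp1b1 stood at 36.5 CPM (16.7 to 69.2) in vehicle at 24 h, the group with the lowest epithelial sum. The part of epithelial RNA in these values was not tested.

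**Figure D3:**
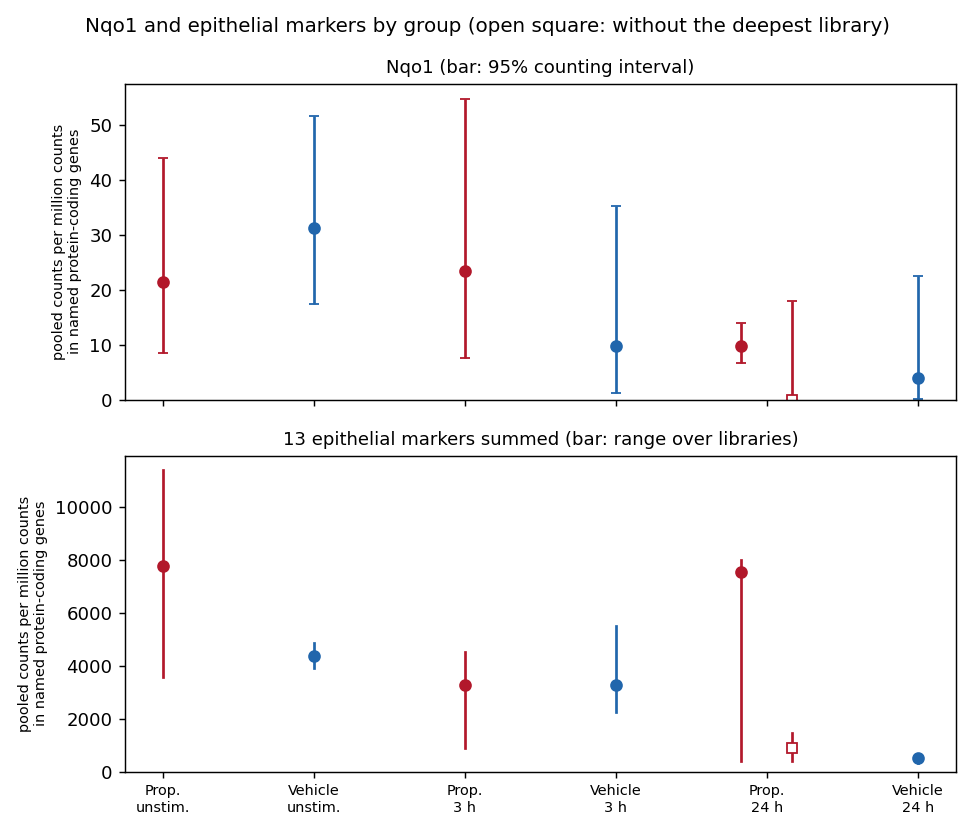
Pooled Nqo1 level with its 95% counting interval (top) and the summed level of 13 epithelial markers with the range over libraries (bottom), both in CPM of named protein-coding genes on linear axes, by group. Both are lower in vehicle at 24 h (4.05 and 502) than in unstimulated vehicle (31.2 and 4372), and the open squares show propyzamide at 24 h without the deepest library.

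The deepest library, 1 library of 1 group, was set beside the pooled 23 others of all groups by counting error alone. Its level over theirs was 2.02 (1.38 to 3.04) for Cyp1b1, 0.716 (0.576 to 0.891) for Ahrr and 0.127 (0.0133 to 0.613) for Cyp1a1. For Ahr it was 1.27 (0.902 to 1.80), for Tiparp 1.13 (0.915 to 1.41) and for Nqo1 0.590 (0.346 to 1.01), intervals that include 1. Its levels of Ahrr and Cyp1b1 (65.8 and 42.2 CPM) lay within the spread of the other libraries. Per length, as TPM averaged over 24 libraries, Ahrr stood at 2.70 ± 4.14, Tiparp at 1.54 ± 1.29, Ahr at 0.517 ± 0.701, Nqo1 at 0.377 ± 0.525, Cyp1b1 at 0.297 ± 0.535 and Cyp1a1 at 0.0716 ± 0.176 (SD). Each SD is close to or above the gap to the next gene, so the order of neighbours is not separated by the spread.

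**Figure D4:**
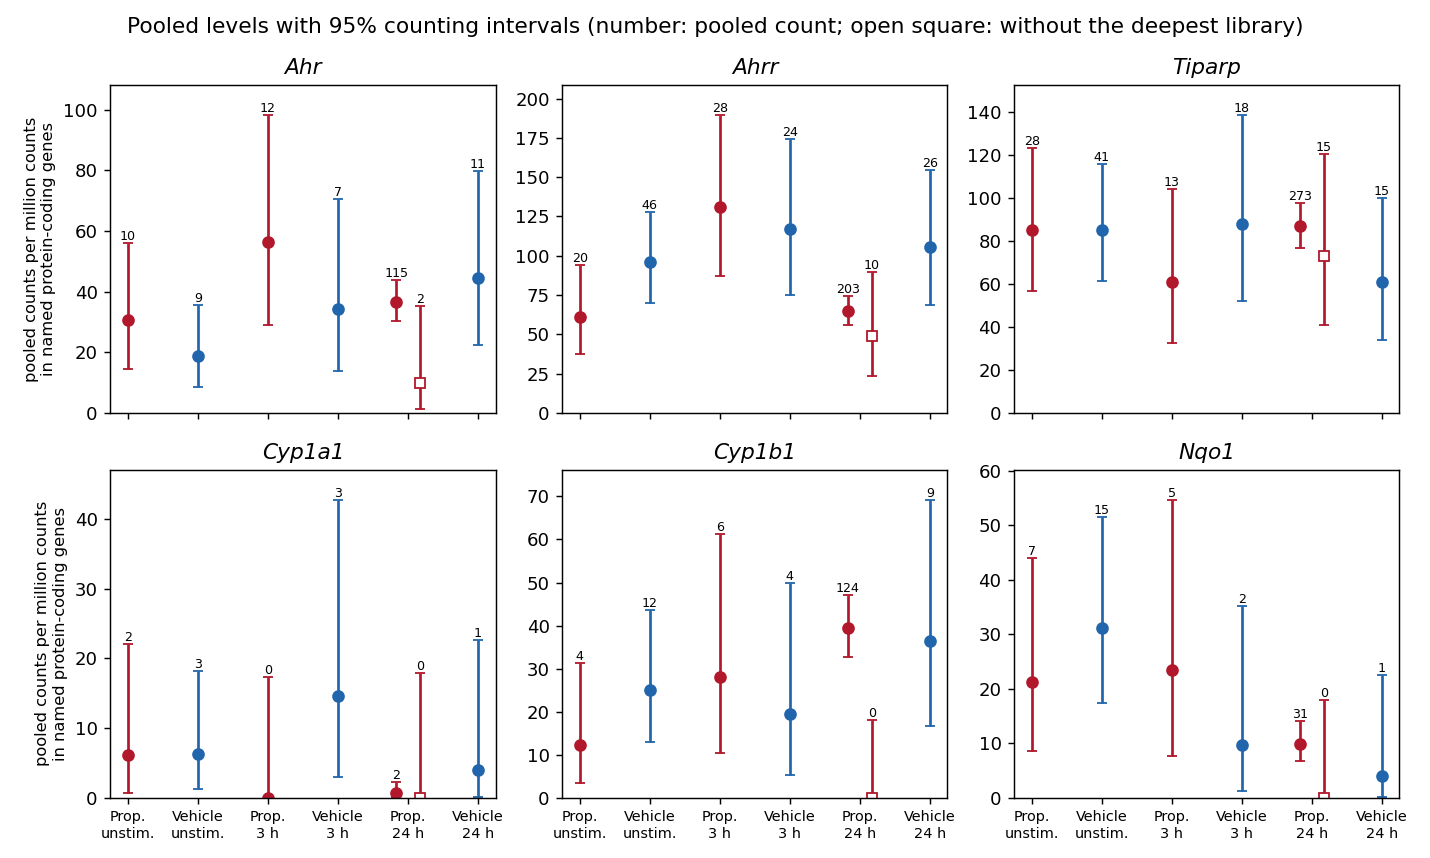
Pooled level of each gene in the 6 groups, in CPM of named protein-coding genes (linear axes from 0), with exact 95% counting intervals and the pooled count above each; open squares leave out the deepest library. Counts of 0 to 46 stand behind every group but propyzamide at 24 h, where the deepest library supplies most of the 2 to 273.

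Of the receptor's complex and partners, 4 of 7 listed genes were tested. Both heat shock protein 90 genes rose in propyzamide at 24 h against propyzamide at 3 h, where 15.2% of all genes tested were called. Hsp90ab1 had a log2 fold change of 1.76 ± 0.45 (SE, edgeR adjusted p = 0.0180) and Hsp90aa1 of 1.74 ± 0.51 (adjusted p = 0.0282). The median log2 fold change of the 4 tested genes was 1.73, beside 0.15 over all genes tested. Pooled, Hsp90ab1 stood at 2506 CPM in propyzamide at 24 h (2478 without the deepest library) and at 1060 in propyzamide at 3 h. Without propyzamide 24 h replicate 2, the edgeR adjusted p was 0.0532 for Hsp90ab1 and 0.0805 for Hsp90aa1. Among named protein-coding genes only it was 0.0729 and 0.118, with smaller log2 fold changes of 1.28 ± 0.43 and 1.26 ± 0.49 (SE). The adjusted p of Hsp90aa1 alone also passed 0.05 without propyzamide 3 h replicates 1, 2 or 3 (0.0698, 0.0822 and 0.0904), without propyzamide 24 h replicate 4 (0.0673) and without the filter on low counts (0.0974). With neither that filter nor the deepest library it was 0.0580 for Hsp90ab1 and 0.333 for Hsp90aa1. In the same comparison 5 of 6 B cell markers rose (median log2 fold change 2.36), 2 of 4 tested T cell markers rose (median 2.59) and 1 of 4 tested goblet cell markers fell. At 3 h with propyzamide the complex genes summed to 314 to 2106 CPM by library and the B cell markers to 334 to 2227, both lowest in replicate 3, the shallowest library of that group, and at 24 h to 1876 to 4246 and 3164 to 6965. The part of B cell and T cell RNA in the rise was not tested. No gene of the complex list was called in the other 10 comparisons.

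In 3 other lists few genes had the depth for a test and 0 were called. Of 10 other genes of the receptor's battery 1 was tested, of 12 Nrf2 targets 4, and of 9 enzymes that make tryptophan-derived ligands 1.

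Across the 24 libraries, the genes whose log2 level followed Ahrr most closely among 2464 tested were Tmem260 (Pearson r = 0.71, Spearman rho = 0.52), Abcc1 (0.71 and 0.58) and Fam81a (0.69 and 0.48). For Tiparp they were Dctn2 (r = 0.81, rho = 0.44), Tbrg1 (0.74 and 0.58) and Tmprss2 (0.73 and 0.46). These are descriptions over 24 libraries that share depth and group, and the counts behind them are small.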

How the data were processed

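RNA of 24 libraries was quantified with kallisto on GRCm38, per the submitters' processing notes, with no version given. The authors deposited expected counts (kallisto's unscaled estimates for each transcript), TPM and effective transcript lengths in bases (unit class other), per the file headers. Here expected counts were summed to 55401 genes by the name in the transcript identifier and rounded. Total counts ran from 438750 to 2.07e+06 per library and reached 9812458 in the deepest. The named protein-coding genes exclude numbered or clone-based models, mitochondrial genes and the olfactory and vomeronasal receptors; their counts are the denominator of CPM.

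The count test was that of edgeR 4.0.16 (R 4.3.3) (filterByExpr, TMM, 1 coefficient per group, quasi-likelihood F test, Benjamini-Hochberg over all genes tested, threshold 0.05), checked on simulated counts. DESeq2 1.42.0, limma 3.58.1 on log2(TPM + 1), RLE normalization, no filter, named genes only and each library left out were alternatives. Pooled ratios carry exact conditional binomial intervals. Genes with 20 or more counts over 8 libraries had an exact two-sided permutation test over libraries (scipy 1.17.1). Ratios are not given where both groups had 3 counts or fewer. Promoter sequences came from RefSeq (GRCm38.p6), which matched 5 of 6 genes, and gene positions from GENCODE on GRCm38. Other genes are named by lists, or as the 5 with the highest Pearson r to Ahrr or Tiparp, of which 3 are printed. The genes and lists were chosen with earlier results of these data known. Of the marker lists, those for T cells, epithelium, B cells and goblet cells are used, and the others and 1 list of lymphocyte genes are not reported here.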

Additional observations from a re-analysis of the deposited data

Results flagged for a closer look

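In 35 sets of 4 libraries (a gene in a group), the gap between the highest or lowest library and its neighbour was compared with the whole range. In 8 sets 1 library stood apart past Dixon's 95% critical value, a rule that flags about 1 in 20 by chance, and in 6 of these the 3 other libraries were at 0, where any count stands apart. Ahr reached 122.7 CPM (9 counts) in unstimulated propyzamide replicate 2, against 15.8 in the next library. Cyp1b1 reached 98.8 CPM (4 counts) in propyzamide 3 h replicate 2, against 13.1 in the next. With the others at 0, the deepest library, propyzamide 24 h replicate 3, stood apart for Cyp1b1 (42.2 CPM), Nqo1 (10.6) and Cyp1a1 (0.681). Cyp1a1 also stood apart in unstimulated propyzamide replicate 3 (13.2 CPM, 2 counts) and, with Nqo1, in vehicle 24 h replicate 1 (9.90 CPM, 1 count each).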

How the results depend on the processing

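No member was called in any fit, but 286 of the 330 counts of calls under alternatives came from fits that tested no member: RLE normalization, limma and each library left out. Those counts of 0 say nothing about stability. DESeq2 and both fits without a filter tested all 6. DESeq2 gave no adjusted p for 28 of the 66 pairs, so those pairs could not be called. Log2 fold changes of members have no value in the filtered fit, since no member passed the filter. Ahrr alone was tested in the edgeR fit of named protein-coding genes only. For 24 h against 3 h with propyzamide that fit gave -1.39 ± 0.64 (SE, adjusted p = 0.183). For propyzamide against vehicle at 24 h it gave -0.98 ± 0.65 (adjusted p = 0.762). The unadjusted p was 0.0371 for the first, and no other comparison of Ahrr in that fit was under 0.05. Without the filter and without the deepest library, a setting added after the data were seen, 4 pairs reached an unadjusted p under 0.05. All 4 were of Cyp1b1 or Nqo1, and none was called. No paired analysis was possible because the labels give no replicate numbers, and those used here follow the order of the records.

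Of 481 pooled ratios under alternatives, 440 stayed within the interval of the reported ratio. At these counts the intervals are wide, as for Nqo1 with propyzamide over vehicle at 24 h (0.405 to 99.2). Most changes therefore stay inside them, and the 440 do not measure stability. Of 216 pooled levels under alternatives, 64 moved out of their own intervals, 47 of them under another denominator, which rescales levels by construction. Dividing by all counts moved ratios of propyzamide at 24 h. Against vehicle at 24 h they became 4.0 for Ahr, 2.99 for Ahrr (reversed), 6.96 for Tiparp and 5.27 for Cyp1b1. Against unstimulated propyzamide they became 4.28 for Ahr, 3.78 for Ahrr, 3.63 for Tiparp and 1.65 for Nqo1. Against propyzamide at 3 h they became 2.78 for Ahr, 2.10 for Ahrr (reversed), 6.10 for Tiparp, 6.00 for Cyp1b1 and 1.80 for Nqo1. Named protein-coding genes held 29.9% of counts in the deepest library, against 3.75% to 9.63% in the 23 others. Equal weight for each library gave, against vehicle at 24 h, 0.260 for Cyp1b1; against unstimulated propyzamide, 0.469 for Ahr, 1.04 for Cyp1b1 and 0.191 for Nqo1; and against propyzamide at 3 h, 0.290 for Ahr, 0.318 for Ahrr, 0.339 for Cyp1b1 and 0.162 for Nqo1. That weighting lowers the share of the deepest library by construction.

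Leaving out each library in turn gave these ranges, where a group at 0 enters at the floor of 3 counts. For Ahr, propyzamide over vehicle ran from 0.209 to 3.02 without stimulation and from 0.218 to 2.67 at 24 h. With vehicle, Ahr ran from 0.732 to 4.08 for 24 h over unstimulated and from 0.402 to 1.90 for 24 h over 3 h. With propyzamide, Ahr ran from 0.717 to 14.3 for 3 h over unstimulated, from 0.320 to 9.32 for 24 h over unstimulated and from 0.173 to 1.67 for 24 h over 3 h. Tiparp ran from 1.15 to 2.53 for propyzamide over vehicle at 24 h. Cyp1b1 ran from 0.400 to 1.56 for propyzamide over vehicle at 24 h, from 1.20 to 5.03 for 24 h over unstimulated propyzamide, and from 0.519 to 3.41 for 24 h over 3 h. The 1.20 stands for 0 counts against 4, with an exact interval of 0 to 2.42, where the reported ratio was 3.24 on 124 counts of the deepest library. Nqo1 ran from 0.181 to 0.880 for propyzamide over vehicle without stimulation and from 0.0996 to 0.659 for 24 h over unstimulated vehicle. With propyzamide, Nqo1 ran from 0.342 to 4.14 for 3 h over unstimulated, from 0.359 to 1.74 for 24 h over unstimulated and from 0.332 to 1.35 for 24 h over 3 h.

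Of 54 ratios, 5 lay past counting error; this count, added after the ratios were seen, was 16 with all counts as the denominator and 4 to 8 with a library left out. RLE normalization moved the median log2 fold change of all genes from 0.15 to 0.48 for propyzamide at 24 h over 3 h. Counts of 0 to 46 per gene and group outside propyzamide at 24 h limit what could be seen.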
